A study of Homo sapiens with 2 samples.

Results

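The ISG15 conjugation pathway was examined through its 6 core genes: the modifier ISG15, the activating enzyme UBA7, the conjugating enzyme UBE2L6, the ligases HERC5 and HERC6, and the protease USP18. They are 6 of the 26370 gene names in the deposited transcript tables, and were taken as all transcript records carrying one of these names, with FPKM (fragments per kilobase of transcript and sequencing depth, a level corrected for transcript length) added up per gene. The set was chosen with the difference between these libraries already known, so all its treated over untreated values are descriptions and none is a test. RNA came from passages 4 to 6 of CHME3, which is an immortalised human line that the labels class as microglia. One culture was left untreated and the other received muscarinic receptor antagonists, blockers of a family of acetylcholine receptors, at 5 µg/ml. The compound, the exposure time and the vehicle are not in the labels, and both libraries come from the same cell line with no other difference stated. With 1 library per group, intervals cover counting error in those libraries and say nothing of how cultures vary.

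ISG15 is a small ubiquitin-like protein made of a pair of ubiquitin folds. Like ubiquitin, it is activated by an enzyme of its own, passed to a conjugating enzyme and joined to lysines of target proteins by a ligase. Type I interferon induces ISG15 and its enzymes through a transcription factor complex that contains STAT2 and IRF9 and binds interferon-stimulated response elements. The conjugates act in antiviral defence, free ISG15 can be secreted, and USP18 both strips ISG15 from targets and restrains the interferon receptor. In the brain, microglia are among the cells in which this programme is known to be induced.

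Estimated depth came to 6834659 fragments without and 7312579 with treatment. Among the 11668 genes whose mean over both libraries reached 1 FPKM, the log2 ratio of treated over untreated had a median of 0.00 and quartiles of -0.10 and 0.11. In such bulk RNA, fewer cells making a transcript and less of it per cell cannot be told apart. The record of 18S ribosomal RNA, RNA18S5, also differed between the libraries, at 363 and 759 FPKM, and its part in the results below was not tested. Neither library held 1 FPKM of 13 of the 15 microglia markers, and 9 of them stood at 0 in the untreated and treated tables alike, among them TMEM119, CX3CR1, AIF1 and ITGAM. For TMEM119, 3 fragments would correspond to 0.175 and 0.163 FPKM. CD68, a lysosomal protein, was over that level at 15.7 and 12.6 FPKM, so that the labelled cell type was not matched by its defining markers. The 15 markers summed to 77.7 and 69.9 FPKM. The 10 fibroblast markers summed to 5328 and 5724 FPKM. Most of it came from the broadly expressed FN1, at 2725 and 3021, and VIM, at 1967 and 2025. COL1A1 was at 499 and 545, THY1 at 119 and 115 and PDGFRB at 17.9 and 17.7 FPKM. The remaining 5 of the 10 were under 1 FPKM in both libraries. The 7 astrocyte markers summed to 32.7 and 36.5, mostly from GJA1, at 27.7 and 30.3, with 5 under 1 FPKM. The 7 neuron markers summed to 31.1 and 31.3, mostly from TUBB3, at 29.3 and 29.9, with 6 under 1 FPKM. The 8 lymphocyte markers, all under 1 FPKM, summed to 0.617 and 0.526. COL3A1, DCN and LUM among fibroblast, AQP4, SLC1A2 and S100B among astrocyte, NEFL among neuron and CD3D, CD2, MS4A1 and NKG7 among lymphocyte markers were listed at 0 in both libraries. The part of these small differences in the results below was not tested. Pairs of values are given in the order untreated and treated.

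The promoters of the modifier and of the ligases are shown because binding of the interferon-activated complex at such sites is how the pathway is known to be induced. RefSeq sequences of 300 bases, from 250 before to 50 after RefSeq's gene start on GRCh38.p14, were at hand for 4 of the 6 members: ISG15, UBE2L6 with 2 starts, HERC5 and HERC6. UBA7 and USP18 had no entry. RefSeq's starts differ from those of the deposited transcript records: for ISG15, HERC5 and HERC6 they lie 30, 2 and 113 bases downstream. The sequences are written 5′ to 3′ on the strand of the gene, and capitals mark matches to GAAANNGAAA, the core of the interferon-stimulated response element, on either strand.
ISG15, chr1:1013247-1013546, plus strand: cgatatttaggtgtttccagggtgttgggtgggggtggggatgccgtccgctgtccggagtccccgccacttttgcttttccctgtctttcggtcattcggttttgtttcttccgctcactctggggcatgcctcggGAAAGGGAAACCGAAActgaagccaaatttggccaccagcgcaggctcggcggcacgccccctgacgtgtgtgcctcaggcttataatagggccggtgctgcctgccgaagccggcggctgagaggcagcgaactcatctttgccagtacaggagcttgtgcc
HERC5, chr4:88456869-88457168, plus strand: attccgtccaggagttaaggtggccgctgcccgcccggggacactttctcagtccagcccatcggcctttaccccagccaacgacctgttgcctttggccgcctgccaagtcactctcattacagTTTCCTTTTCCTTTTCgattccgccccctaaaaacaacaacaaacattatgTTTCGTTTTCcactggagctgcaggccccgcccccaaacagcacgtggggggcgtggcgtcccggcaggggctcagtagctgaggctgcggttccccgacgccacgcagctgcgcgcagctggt
HERC6, chr4:88378602-88378901, plus strand: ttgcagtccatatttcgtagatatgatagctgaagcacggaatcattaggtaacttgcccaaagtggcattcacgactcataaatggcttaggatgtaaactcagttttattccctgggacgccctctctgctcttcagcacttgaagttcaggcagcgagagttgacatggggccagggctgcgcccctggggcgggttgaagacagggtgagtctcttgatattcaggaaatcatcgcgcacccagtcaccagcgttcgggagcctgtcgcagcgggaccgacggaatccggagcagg

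ISG15 held 2 matches on its own strand, GAAAGGGAAA at -113 to -104 and GAAACCGAAA at -107 to -98 from RefSeq's gene start, which overlap each other. HERC5 held 3 matches on the opposite strand. There GAAAAGGAAA stood at -125 to -116 and again at -119 to -110, overlapping, and GAAAACGAAA stood at -74 to -65. HERC6, which lies next to HERC5, had no match in its window, and neither did the 2 windows of UBE2L6. Of the UBE2L6 windows, 1 covers the start of the deposited record NM_004223, and neither reaches that of NM_198183, so the latter was not searched. None of the 5 windows held TTCNNNGAA, the palindromic core of gamma-activated sites, a motif found in 7.66% of the 35116 promoters of this length in the table. GAAANNGAAA was found in 3.57% of those promoters. Counted per gene, it was found in 726 of the 17509 gene names with a promoter entry, or 4.15%. Of the 57 other interferon-induced genes on a list used below, 45 had a promoter entry and 34 of these, or 75.6%, held GAAANNGAAA. GAAANNGAAA was found in the promoters of 0 of 10 other enzymes reported to act on ISG15 and of 0 of 8 closest relatives of the members. A match is a stretch of letters, not a measured binding site.

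**Figure D1:**
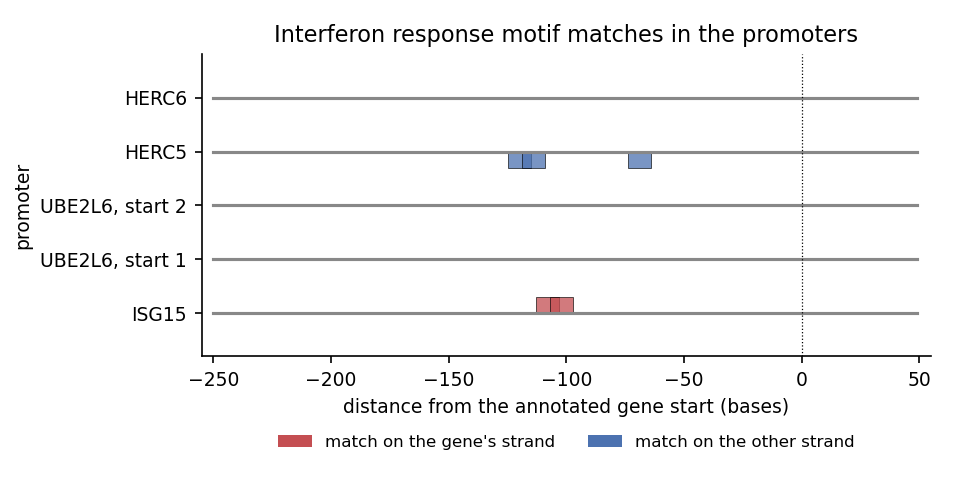
Positions of GAAANNGAAA in the 5 promoter windows of 4 member genes, as distance in bases from RefSeq's gene start, with bars above the line for the strand of the gene and below it for the other strand. ISG15 and HERC5 hold overlapping matches between -125 and -98, HERC5 holds 1 more at -74 to -65, and HERC6 and both UBE2L6 windows hold none.

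Genes over 1 FPKM whose promoter held GAAANNGAAA were close to those without it in median log2 ratio, while a larger share of them was at least 1.5-fold higher. Of the former there were 357, with a median log2 ratio of 0.01, and 7 of them, or 1.96%, were at least 1.5-fold higher in the treated library. Of the latter there were 9123, with a median of 0.00, and 76, or 0.833%, were at least 1.5-fold higher. ISG15 and HERC5, the members with a match, had log2 ratios of 0.27 and 0.37. HERC6 and UBE2L6, the members without one in these windows, had 0.41 and 0.37. The counting intervals of the 4 FPKM ratios overlap. Among the other interferon-induced genes over 1 FPKM, 30 with a match had a median of 0.30, and 3 of them were at least 1.5-fold higher. The 8 without one had a median of 0.25, and 0 were at least 1.5-fold higher. The 3 with a match are among the 7 above, and their list was chosen with earlier results of these data known. The part of the motif in these ratios was not tested.

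All members were detected in both libraries, with the modifier highest and its activating enzyme lowest. ISG15 was at 218 FPKM, with a 95% exact Poisson interval of 203 to 235, and 263 FPKM (247 to 281). By FPKM it ranked 292 among all gene names without and 237 with treatment. UBE2L6 came next at 12.6 FPKM (10.2 to 15.5) and 16.6 FPKM (14.0 to 19.7). HERC5 followed at 5.28 FPKM (4.38 to 6.31) and 7.09 FPKM (6.07 to 8.23). These 3 levels were separated from each other in both libraries by more than their counting intervals. USP18 was at 1.19 FPKM (0.667 to 1.96) and 1.62 FPKM (1.02 to 2.46), and HERC6 at 1.15 FPKM (0.769 to 1.65) and 1.84 FPKM (1.37 to 2.43). The intervals of USP18 and HERC6 overlapped in both libraries, so their order was not detectable at this depth. UBA7 was lowest, at 0.375 FPKM (0.162 to 0.739) and 0.480 FPKM (0.240 to 0.860), from 8 and 11 fragments. Its interval was apart from that of HERC6 in both libraries, and apart from that of USP18 in the treated library alone. The same order held by FPKM in both libraries apart from USP18 and HERC6, which changed places.

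**Figure D2:**
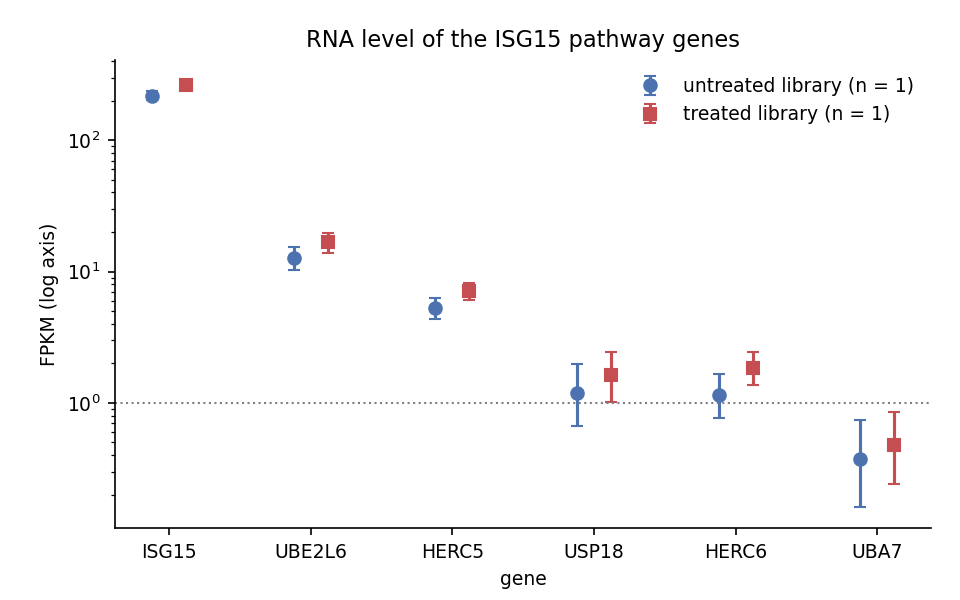
RNA level of the 6 members in FPKM on a log axis, in the untreated library (circles) and the treated library (squares), with 95% exact Poisson intervals of the fragments behind each value and a dotted line at 1 FPKM. ISG15 is at 218 and 263 FPKM, UBA7 at 0.375 and 0.480, and the treated point is the higher of the pair in every member.

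ISG15, the modifier (chromosome 1, 1013467 to 1014539 on hg38, plus strand, 1 transcript of 666 bases in 2 exons), was higher in the treated library by the narrowest of the member intervals. From 707 and 932 fragments its FPKM ratio was 1.21, with a 95% counting interval of 1.09 to 1.33, and its log2 ratio on log2(FPKM + 1) was 0.27. The authors' own bounds of its FPKM ran from 202 to 235 and from 246 to 281, and did not overlap. ISG15 was the member for which this held, while 1.02% of all genes over 1 FPKM had such bounds apart with the treated value higher. Of its neighbours on the chromosome, HES4, a transcriptional repressor, was at 34.1 and 36.9 FPKM, with a ratio of 1.08 (0.885 to 1.32). AGRN, the matrix protein agrin, was at 83.1 and 94.7 FPKM, with a ratio of 1.14 (1.09 to 1.19). Both intervals overlap that of ISG15. The 3 protein-coding genes nearest to ISG15 by distance on log2(FPKM + 1) over the 2 libraries were COX5B, a subunit of cytochrome c oxidase, at 204 and 247 FPKM, CD151, a tetraspanin, at 234 and 247, and KRT18, a keratin, at 241 and 262.

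UBA7, the activating enzyme that loads ISG15 and starts the cascade (chromosome 3, 49805205 to 49813958, minus strand, 1 transcript of 3313 bases in 24 exons), had too few fragments for a direction to be detectable at this depth. From 8 and 11 fragments its ratio was 1.28 (0.469 to 3.67). It was the member under the mean of 1 FPKM, so counts over the members below rest on the other 5. Per length, ISG15 RNA was 582 and 548 times that of UBA7. The activating enzymes of ubiquitin stood far above it: UBA1 was at 102 and 105 FPKM, 272 and 218 times UBA7, and UBA6 at 10.2 and 10.5 FPKM, 27.1 and 21.9 times. UBA2, of the SUMO activating enzyme, was 141 and 117 times, and UBA3, of the NEDD8 activating enzyme, 61.4 and 44.4 times the level of UBA7. UBA7 was thus lower than these 4 activating enzymes in both libraries. The microRNA gene MIR5193 lies within UBA7 and was listed at 0 in both libraries.

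UBE2L6, which receives ISG15 from UBA7 and works with the ligases (chromosome 11, 57551655 to 57568330, minus strand), was higher in the treated library, with an interval that barely cleared 1. From 93 and 135 fragments its ratio was 1.32 (1.004 to 1.73), and its log2 ratio was 0.37. It has 2 transcript records of 4 exons each. The one of 1261 bases, NM_004223, carried 97.7% and 91.4% of the gene's FPKM, at 12.4 and 15.2 FPKM. The one of 1620 bases, NM_198183, starts upstream of it and was at 0.287 and 1.43 FPKM, from an estimated 3 and 15 fragments, a ratio of 4.98 (1.31 to 25.0). With NM_004223 alone the ratio was 1.23 (0.932 to 1.64), an interval that includes 1. The division of shared fragments between these records was the authors' estimate. UBE2L3, the closest relative of UBE2L6 and a conjugating enzyme for ubiquitin, was at 40.8 and 41.8 FPKM, 3.22 and 2.51 times UBE2L6, with a ratio of 1.03 (0.930 to 1.13).

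The ligase genes HERC6 and HERC5 lie side by side on chromosome 4, separated by 14020 bases, and both had higher values in the treated library. HERC5, the main ISG15 ligase of human cells (88457117 to 88506168, plus strand, 1 transcript of 3518 bases in 23 exons), had 120 and 173 fragments, a ratio of 1.34 (1.06 to 1.71) and a log2 ratio of 0.37. HERC6, the main ISG15 ligase of mice (88378739 to 88443097, plus strand, 2 transcripts), had 29 and 50 fragments, a ratio of 1.61 (0.997 to 2.63) and a log2 ratio of 0.41. The HERC6 interval includes 1, and the 2 ligases' intervals overlap. Nearly all of HERC6, 99.98% and 99.8%, was listed under the transcript of 3889 bases, NM_017912, and less than 1 fragment under the shorter NM_001165136. HERC5 RNA was 4.60 and 3.84 times that of HERC6 per length. The genes around the pair had ratios with intervals that include 1. PPM1K, a mitochondrial phosphatase, was at 3.20 and 2.86 FPKM, with a ratio of 0.893 (0.700 to 1.14). PIGY, of the glycolipid anchor pathway, was at 25.5 and 25.0, a ratio of 0.982 (0.806 to 1.19). HERC3, a further family member in the same region, was at 2.85 and 2.72 FPKM, with a ratio of 0.955 (0.709 to 1.29). The remaining relatives HERC1, HERC2 and HERC4 had ratios of 1.03 (0.909 to 1.16), 0.999 (0.916 to 1.09) and 0.987 (0.879 to 1.11).

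USP18, the protease that removes ISG15 (chromosome 22, 18149991 to 18177395, plus strand, 1 transcript of 2035 bases in 11 exons), had a higher value in the treated library that was within counting error. From 15 and 22 fragments its ratio was 1.36 (0.676 to 2.83) and its log2 ratio 0.26. USP18 has near-identical duplicated sequence elsewhere on chromosome 22, including USP41, so the fragments of USP18 are uncertain beyond the interval. USP41 was looked for but has no deposited transcript record, so no value can be set beside that of USP18. HERC5 RNA was 4.43 and 4.37 times, and ISG15 RNA 183 and 162 times, that of USP18 per length. Partners of USP18 were listed at higher levels than the protease: STAT2, which brings USP18 to the receptor, was at 20.4 and 22.1 FPKM, with a ratio of 1.08 (0.969 to 1.21), and IFNAR2, the receptor chain it binds, at 9.16 and 8.99, with a ratio of 0.981 (0.757 to 1.26). SKP2, the ubiquitin ligase subunit that targets USP18 for degradation, was at 54.4 and 48.8 FPKM, with a ratio of 0.898 (0.813 to 0.991). ITGAL, a chain of the receptor for secreted ISG15, was listed at 0 in both libraries, and its partner chain ITGB2 was at 0.269 and 0.0501 FPKM, from 5 and 1 fragments.

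Of the members over 1 FPKM, 5 of 5 had a positive log2 ratio, against 50.7% of all genes over 1 FPKM. On log2(FPKM + 1), 0 of 5 were at least 1.5-fold higher, against 1.20%, though the plain FPKM ratio of HERC6 was 1.61. The intervals of 3 members lay above 1, those of ISG15, UBE2L6 and HERC5, against 6.72% of all genes, and 0 lay below 1, against 6.23%. Since the members were picked on this contrast, these counts carry no weight of their own. The median log2 ratio of the 5 was 0.37, with a range of 0.26 to 0.41, against 0.00 over all genes. A log2 ratio at least as high as that of USP18, the lowest of the 5, was found in 8.35% of all genes, and at least as high as that of HERC6, the highest, in 3.21%. The interval of ISG15, the narrowest, lay within those of each of the other 5 members, so the ratios of the members could not be told apart at this depth.

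**Figure D3:**
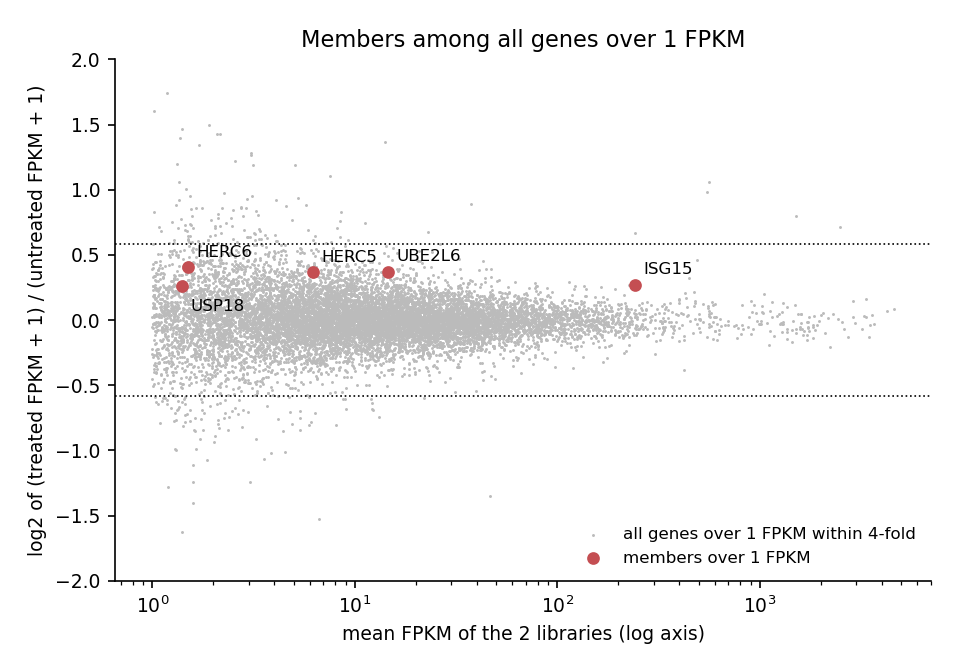
Log2 ratio of treated over untreated against mean FPKM (log axis) for the genes over 1 FPKM within 4-fold (grey) and the 5 members over 1 FPKM (red), with dotted lines at 1.5-fold. The members lie between 0.26 and 0.41, inside the dotted lines, at means from 1.41 to 241 FPKM.

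Other enzymes reported to act on ISG15 or its conjugates had ratios near 1. Of 11 chosen for this, 10 had deposited transcript records, all over 1 FPKM, with a median log2 ratio of 0.04, and USP41 had none. Of the 10, 7 were higher, against 50.7% of all genes over 1 FPKM, and 3 lower. Of them 0 were at least 1.5-fold higher, against 1.20%, and 0 at least 1.5-fold lower, against 1.03%. An interval above 1 was found in 1 of the 10, TRIM25, against 6.72%, and below 1 in 0, against 6.23%. UBE2E2 had the lowest log2 ratio of the 10, -0.18, at 15.3 and 13.3 FPKM, with a ratio of 0.872 (0.695 to 1.09). TRIM25, an interferon-induced ubiquitin ligase also reported as an ISG15 ligase, was at 10.4 and 12.1 FPKM, with a ratio of 1.17 (1.02 to 1.34). ARIH1, a further ligase reported to join ISG15 to a translation factor, was at 20.4 and 20.6 FPKM, with a ratio of 1.01 (0.913 to 1.12). Both were above HERC5 in level, TRIM25 at 1.96 and 1.71 times and ARIH1 at 3.86 and 2.91 times. Among proteases reported to cleave ISG15, USP5 was at 52.4 and 54.9 FPKM, USP14 at 11.5 and 12.4, USP16 at 11.4 and 12.3, USP21 at 16.9 and 17.6 and USP13 at 5.52 and 5.59, above USP18 in both libraries. USP2, a further one, was at 1.07 and 1.05 FPKM, below USP18 in both, with overlapping Poisson intervals. The ratio intervals of these 6 proteases include 1. The closest relatives of the members, with 7 over 1 FPKM, had log2 ratios between -0.05 and 0.05, and all 7 intervals include 1. UBD, a ubiquitin-like modifier with a pair of folds like ISG15, was at 0.734 and 0.508 FPKM, from 4 and 3 fragments.

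**Figure D4:**
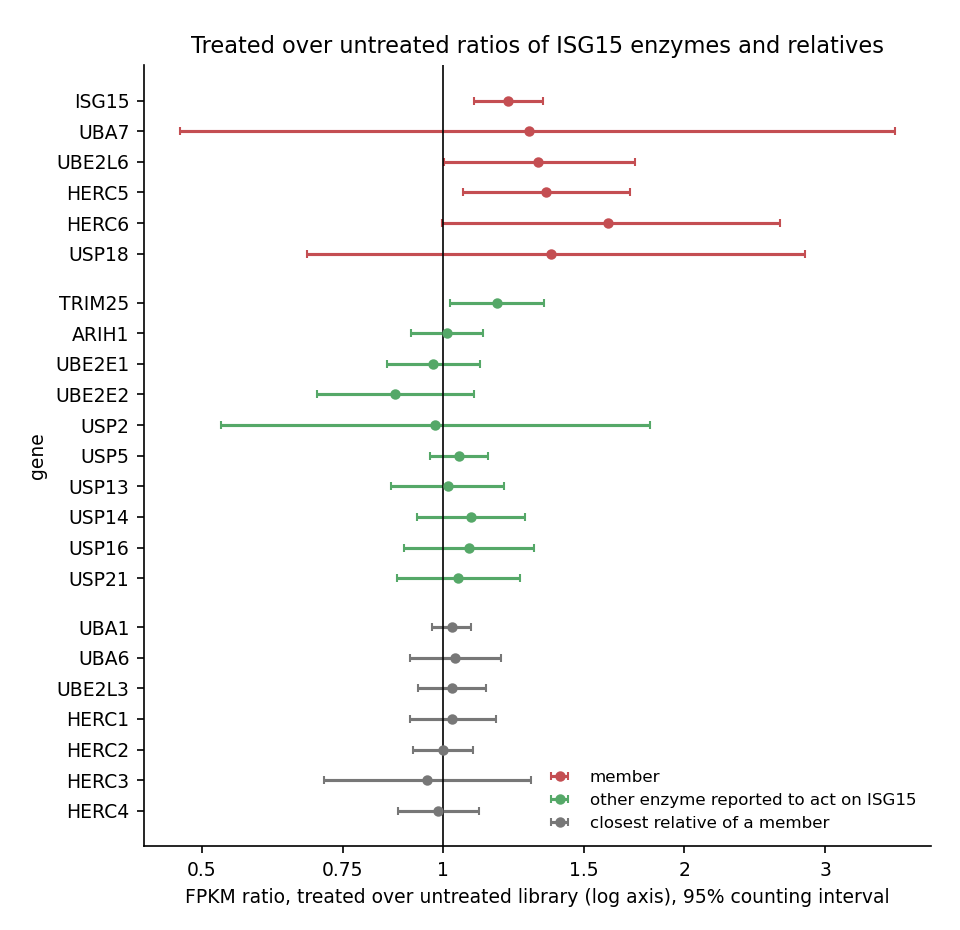
FPKM ratio of treated over untreated on a log axis with 95% counting intervals, for the 6 members (red), 10 other enzymes reported to act on ISG15 (green) and the 7 closest relatives over 1 FPKM (grey). Members lie between 1.21 and 1.61, with intervals above 1 in ISG15, UBE2L6 and HERC5. TRIM25 has the one interval above 1 among the rest, where 6.72% of all genes over 1 FPKM have one.

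The other conjugation systems of ubiquitin-like proteins had medians close to that of all genes. Over 23 genes of the ubiquitin list the median log2 ratio was -0.04. Of these, 7 were higher, against 50.7% of all genes over 1 FPKM, and 16 lower. Intervals lay above 1 in 2 genes, against 6.72%, and below 1 in 6, against 6.23%. The polyubiquitin gene UBB, at 989 and 1068 FPKM, was among the former. The largest absolute log2 ratios of the list, all negative, were those of the conjugating enzymes UBE2W, at 4.80 and 3.59 FPKM, UBE2B, at 14.6 and 11.8, UBE2D2, at 58.9 and 50.3, and UBE2V2, a variant without a catalytic cysteine, at 41.1 and 35.3. The SUMO list had a median of 0.01 over 17 genes, with an interval above 1 in the protease SENP7, at 4.43 and 6.77 FPKM, and below 1 in the protease SENP3, at 44.0 and 38.0. The NEDD8 list had a median of 0.00 over 13 genes, and all 13 intervals include 1. The UFM1 list had a median of -0.02 over 7 genes, with an interval above 1 in DDRGK1, an adaptor of the UFM1 ligase, at 14.2 and 18.9 FPKM.

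Interferon-induced genes outside the ISG15 pathway had a range of ratios that includes those of the members. Of 57 such genes 45 were over 1 FPKM, with a median log2 ratio of 0.29 and a range of -0.29 to 0.84. Positive ratios were seen in 43 and negative ones in 2 of the 45, against 50.7% positive among all genes over 1 FPKM. Of the 45, 25 had intervals above 1, against 6.72%, and 0 below, against 6.23%. On log2(FPKM + 1), 4 passed 1.5-fold upward, against 1.20%. They were MX2, at 2.06 and 4.48 FPKM, MX1, at 17.6 and 28.6, IFI6, at 186 and 297, and IFIT3, at 5.89 and 9.41. By plain FPKM ratio, further genes of the list passed 1.5. The 2 with negative ratios, named after their values were seen, were IFIT5, at 4.95 and 4.12 FPKM, and PSMB9, at 4.27 and 3.32, with intervals that include 1. This list too was chosen with earlier results of these data known. Of 18 genes that carry the interferon signal, 17 were over 1 FPKM, with a median log2 ratio of -0.04. Of the 17, 7 were higher, against 50.7% of all genes over 1 FPKM, and 10 lower. IRF9, the DNA-binding subunit of the complex that drives ISG15, was at 25.2 and 24.2, a ratio of 0.961 (0.806 to 1.15), a gene named after its values were seen. IRF3, which can drive ISG15 without interferon, was at 41.7 and 35.3 FPKM, with a ratio of 0.846 (0.733 to 0.978). None of 21 interferon ligand genes reached 1 FPKM, and 19 were listed at 0 in both libraries. IFNB1, which encodes interferon beta, was among the latter, where 3 fragments would correspond to 0.678 and 0.624 FPKM.

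RNAs of 21 proteins reported as ISG15 targets had a median log2 ratio of 0.06. Of these, 14 were higher, against 50.7% of all genes over 1 FPKM, and 7 lower. Intervals lay above 1 in 6, against 6.72%, and below 1 in 2, against 6.23%. For the 5 that are also on the list of interferon-induced genes the median was 0.29, and for the other 16 it was 0.02. MX1, an antiviral GTPase, was at 17.6 and 28.6 FPKM, IFIH1, a sensor of viral RNA, at 2.19 and 3.24, and IFIT1, which binds viral RNA ends, at 8.80 and 11.0. The intervals below 1 were those of IRF3, given above, and UBE2N, a ubiquitin conjugating enzyme, at 35.8 and 31.6 FPKM, with a ratio of 0.884 (0.785 to 0.995).

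**Figure D5:**
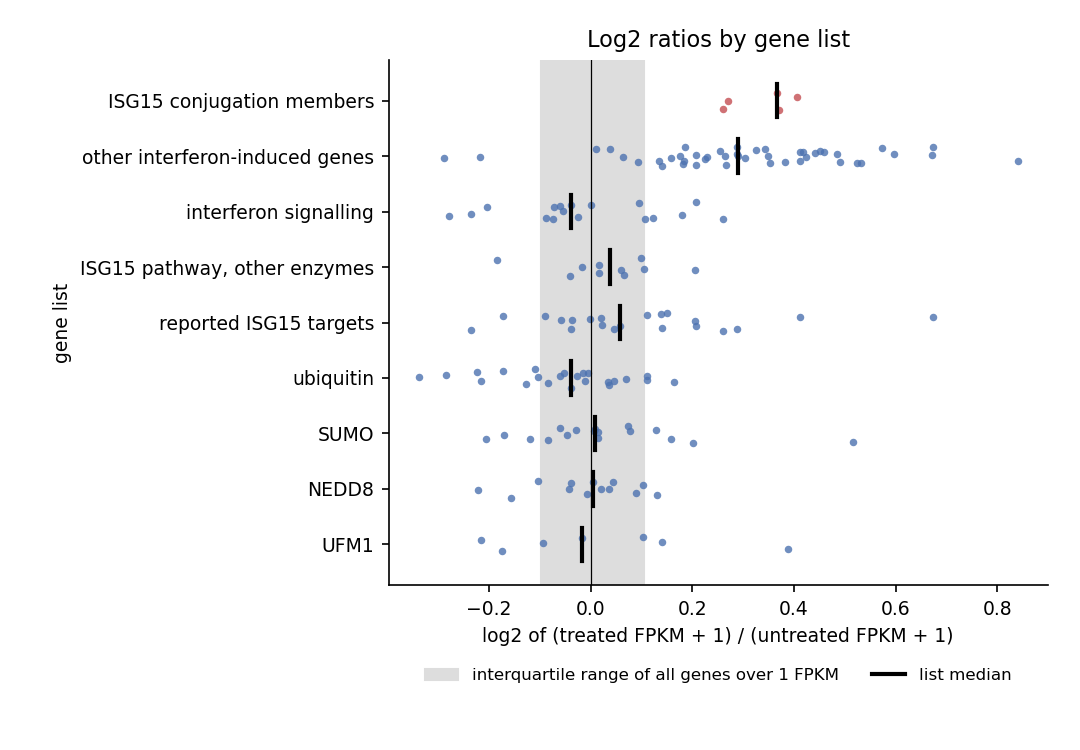
Log2 ratio of treated over untreated for each gene over 1 FPKM (points) by gene list, with the list median (black bar) and the interquartile range of all genes over 1 FPKM (grey band, -0.10 to 0.11). The 5 members lie between 0.26 and 0.41 within the spread of the other interferon-induced genes, and the ubiquitin, SUMO, NEDD8 and UFM1 lists have medians between -0.04 and 0.01.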

How the data were processed

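RNA of 1 untreated and 1 treated culture of CHME3 was sequenced from TruSeq libraries on an Illumina HiSeq instrument, per the labels. TopHat, Cuffdiff and the build hg38 are named, without versions, in the submitters' processing notes. The authors deposited 56891 reference transcripts in each file, every line naming Cufflinks, with FPKM, its lower and upper bounds and other values in a text field. A score relative to the major isoform that the authors deposited was not used. Whether the libraries keep strand is not given in the sources used here.

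FPKM was summed per gene. Log2 ratios are on log2(FPKM + 1), which understates changes of low genes. Counts use genes whose mean reached 1 FPKM and a threshold of 1.5-fold on that log2 scale, with no test. Fragments are estimates. From single-transcript genes of at least 1000 bases, where the authors' bounds gave at least 10 fragments within 0.01 of a whole number, fragments per FPKM were regressed on length, and the slope gave each library's depth. With it 74.5% of 5464 untreated and 76.0% of 5506 treated estimates on single-transcript genes of at least 1000 bases and at least 3 fragments fell within 0.02 of a whole number, and those of all 6 members within 0.1. Ratio intervals are exact conditional binomial ones at 95%, from fragments rounded to whole numbers, and leave out PCR duplicates and the division of fragments between isoforms. The interval code was tested on simulated data. Motifs were searched in RefSeq promoters, and GENCODE 29 was used to look for genes overlapping the members. Python 3.11.15, pandas 2.3.3 and scipy 1.17.1 were used.

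The members and the gene lists were chosen with earlier results of these data known. Named genes are the members, their neighbours, the 3 genes nearest to ISG15, any gene of lists of 10 or fewer, up to 4 genes with the largest absolute log2 ratio of longer lists, and genes marked as named after their values were seen. ARIH1, USP2, USP5, USP13, USP21, UBA2, UBA3, UBB, UBE2N, IFNB1, RNA18S5 and the cell type markers were also named after their values were seen. Some genes that the rule would name are not reported here.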

Additional observations from a re-analysis of the deposited data

How the results depend on the processing

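Under 6 alternative settings each (pseudocounts of 0.1 and 5 FPKM, scaling by the median ratio or by summed FPKM, the most abundant transcript alone, and fragments divided by depth) all 36 member log2 ratios stayed above 0. Most of these settings could not have changed the sign, so this is no support for it. A pseudocount leaves the sign as it is. The scalings divide the treated values by 0.998 and 0.995, which raises the ratios. Members with 1 transcript keep their value when the most abundant transcript is used. The log2 ratios ran from 0.27 to 0.30 for ISG15, 0.28 to 0.41 for UBE2L6, 0.23 to 0.42 for HERC5, 0.15 to 0.64 for HERC6, 0.10 to 0.42 for USP18 and 0.03 to 0.29 for UBA7. With a pseudocount of 0.1 FPKM, 1 member, HERC6, was at least 1.5-fold higher. With 99% intervals, and where the authors' bounds had to be apart, 1 member in place of 3, ISG15, was above 1. The count of all genes at least 1.5-fold higher, 140, and lower, 120, became 298 and 258 with a pseudocount of 0.1 FPKM, 35 and 27 with 5 FPKM, 374 and 324 with the most abundant transcript, 229 and 202 with no floor, 42 and 41 with a floor of 5 FPKM, 41 and 36 at 2-fold, and 24 and 15 where the authors' bounds were also apart. No paired analysis was possible because each group has 1 library. Depth limits UBA7, USP18 and HERC6 most, with 8 to 50 fragments per library.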
